A study of Mus musculus with 6 samples.

Results

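The genes described here are Pebp1, which encodes RKIP, the receptor kinase genes Grk3, Grk5 and Grk6, and the beta-arrestin genes Arrb1 and Arrb2. They were taken by gene symbol: every probe set whose only symbol in the platform annotation is one of these 6 names, which gave 13 probe sets of the 34945 with a single symbol, and 6 of the 18193 genes. For each gene the probe set with the highest mean over the arrays is called the main one. Main probe sets were tested among 11254 genes whose mean level reached the filter, and all 6 passed it. Of the 13 probe sets, 12 passed that level, and the exception was the dimmest of Grk6.

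Heart RNA was measured on 6 Affymetrix arrays, with 2 arrays in each of 3 groups, all from males aged 2 months on a B6 strain background. RKIP-transgenic mice carried an RKIP transgene driven by the alpha-MHC promoter, which is active in heart muscle cells. GRK-Inh-transgenic mice made a peptide that inhibits receptor kinases in the myocardium, and the labels do not name its promoter. B6 control mice were wild type. The labels describe a single mouse line for each transgene and do not mention pooling, and nothing in them tells whether replicate arrays stand for different animals. The p-values therefore cover the spread among these arrays alone, and that spread may be technical. All values below are signals on the authors' linear scale, with the SD over 2 arrays, or log2 fold changes of signal plus 50 with the SE of limma's moderated test. A called gene is one whose p, adjusted by the Benjamini-Hochberg method over all 11254 genes, was under 0.05.

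As background, receptor kinases (GRKs) phosphorylate agonist-bound G-protein-coupled receptors, and beta-arrestins then bind the phosphorylated receptor, block its coupling to G proteins and lead it into clathrin-coated pits. In heart muscle this switches off beta-adrenergic signalling. RKIP, once phosphorylated by protein kinase C, binds and inhibits GRK2, which links it to receptor desensitization. GRK5 differs from GRK2 and GRK3 in that it anchors to the membrane without G-protein beta-gamma subunits, can enter the nucleus and phosphorylates the histone deacetylase HDAC5 there. Grk2 was not analysed here.

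Grk5 was the member that changed: on its main probe set it was higher in the hearts of both transgenic groups than in control hearts, and its second probe set did not show this in GRK-Inh-transgenic hearts. Pebp1, Grk3, Grk6, Arrb1 and Arrb2 were not called in any of the 3 comparisons. In RKIP-transgenic against control hearts, 1 of 6 members rose and 0 fell, where 10.8% of all tested genes were called. In GRK-Inh-transgenic against control hearts, 1 of 6 rose and 0 fell, where 13.1% of all genes were called. Between the RKIP-transgenic and the GRK-Inh-transgenic hearts, 0 of 6 were called by limma, 0 had an unadjusted p under 0.05, and 8.82% of all genes were called. With 6 members these shares are near the background, so the counts are no result about the family, and the single-gene values below carry the description. Both comparisons with control share the same 2 control arrays.

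Pebp1 is the endogenous mouse gene of the protein that the RKIP transgene encodes, and it comes first because it bears on the labels. Its main probe set (1438649_x_at) gave 9102 and 9140.4 in RKIP-transgenic hearts, 9079 and 9296 in GRK-Inh-transgenic hearts, and 9292 and 8766 in control hearts. The other probe set (1415950_a_at) gave 5912 and 5567 in RKIP-transgenic, 5672 and 5885 in GRK-Inh-transgenic, and 5284 and 5622 in control hearts. On the main probe set the control arrays spanned the values of all but 1 of the transgenic arrays, so no group stood apart there. On the other probe set the GRK-Inh-transgenic arrays lay just above both control arrays (log2 fold change 0.083 ± 0.051, adjusted p = 0.342), and the RKIP-transgenic arrays overlapped the controls. For the main probe set the log2 fold change was 0.015 ± 0.041 in RKIP-transgenic against control hearts (95% interval -0.076 to 0.11, adjusted p = 0.866). The corresponding value for GRK-Inh-transgenic hearts was 0.025 ± 0.041 (95% interval -0.065 to 0.12, adjusted p = 0.737). The labels do not give the species or the 3' end of the transgene, and whether these probes can detect its transcript was not tested. The Pebp1 signals therefore cannot tell whether the transgene was expressed. The hearts of that group are called RKIP-labelled from here on, since their genotype is known from the labels alone.

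The promoters of Pebp1 and Grk5 are shown because the first is the endogenous gene of the transgene's product and the second the one member that changed. Both come from RefSeq on GRCm38.p6 and run from 250 bases before to 50 bases after the gene's start, 5′ to 3′ on the gene's own strand. Capitals mark matches of the motifs named below.
Grk5, chr19:60889499-60889798, plus strand: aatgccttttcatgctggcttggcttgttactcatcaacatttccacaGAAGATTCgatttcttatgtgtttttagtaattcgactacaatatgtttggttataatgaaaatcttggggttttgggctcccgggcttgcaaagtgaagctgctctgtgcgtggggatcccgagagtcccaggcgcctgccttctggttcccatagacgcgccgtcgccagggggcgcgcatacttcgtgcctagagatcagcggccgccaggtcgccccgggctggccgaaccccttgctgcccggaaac
Pebp1, chr5:117287515-117287814, minus strand: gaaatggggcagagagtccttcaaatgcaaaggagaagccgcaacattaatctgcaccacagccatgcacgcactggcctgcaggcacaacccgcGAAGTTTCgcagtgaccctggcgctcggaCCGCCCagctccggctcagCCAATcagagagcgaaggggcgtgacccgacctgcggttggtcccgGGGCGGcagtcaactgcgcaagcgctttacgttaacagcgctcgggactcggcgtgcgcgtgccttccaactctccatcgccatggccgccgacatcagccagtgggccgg

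The search covered both strands for 7 motifs: the GC box GGGCGG, the CCAAT box CCAAT, the TATA box TATAAA, the cyclic AMP response element TGACGTCA, the E-box CACGTG, a pair of facing heat shock units GAANNTTC, and the CArG box. The Grk5 window held 1 match, of the heat shock unit pair, whose first base lies at -202 from the start. The Pebp1 window held 2 GC boxes at -126 and -61, 1 CCAAT box at -107 and 1 heat shock unit pair at -155, none of which overlap. Of 32851 promoters of the same length, 35.7% held a GC box, 37.4% a CCAAT box and 7.86% the heat shock unit pair. For the motifs that neither window held, the shares were 13.6% for the TATA box, 1.79% for the cyclic AMP response element, 7.15% for the E-box and 1.63% for the CArG box. By base composition, 54.3% of the Grk5 window and 63.7% of the Pebp1 window were G or C, and the median over all promoters was 52.7%. These matches describe the letters in the windows and were not tied to the signals. The table held promoters for 3 of the 6 members, Grk6 being the third.

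Grk5 was measured by a bright and a dim probe set. Its main probe set (1449514_at) gave 828 and 870.3 in RKIP-labelled hearts, 867 and 773 in GRK-Inh-transgenic hearts, and 596 and 540.5 in control hearts. All 4 transgenic arrays lay above both control arrays, and the transgenic groups overlapped each other. With 2 arrays a group this is common: 53.4% of all tested genes had no overlap between RKIP-labelled and control hearts, and 56.9% none between GRK-Inh-transgenic and control hearts. The group means were 849 ± 29.7 in RKIP-labelled, 819.97 ± 66.6 in GRK-Inh-transgenic hearts and 568 ± 39.4 in control hearts (SD, n = 2 each). The log2 fold change was 0.54 ± 0.087 in RKIP-labelled against control hearts (95% interval 0.35 to 0.73, adjusted p = 0.00286). It was 0.49 ± 0.087 in GRK-Inh-transgenic against control hearts (95% interval 0.30 to 0.68, adjusted p = 0.00354). As folds of signal plus 50, the rise was 1.46 in RKIP-labelled and 1.41 in GRK-Inh-transgenic hearts. By absolute log2 fold change, Grk5 ranked 375 of the 11254 genes in RKIP-labelled hearts and 740 in GRK-Inh-transgenic hearts. Genes called higher in both groups against the shared controls numbered 287, or 2.55% of those tested.

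Between the 2 transgenic groups, Grk5 differed by 0.050 ± 0.087 on the log2 scale (95% interval -0.14 to 0.24, adjusted p = 0.794). The order of levels was therefore RKIP-labelled, GRK-Inh-transgenic, control, with no difference beyond the spread between the first and the second.

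The second Grk5 probe set (1436672_at) did not repeat the main one in every group. It gave 208 and 166 in RKIP-labelled hearts, 132 and 123 in GRK-Inh-transgenic hearts, and 127 and 92.7 in control hearts. The RKIP-labelled arrays lay above all others, while the GRK-Inh-transgenic arrays overlapped the controls. In a fit over 19771 probe sets, the log2 fold change against control was 0.57 ± 0.16 for RKIP-labelled hearts (95% interval 0.21 to 0.93, adjusted p = 0.0597). For GRK-Inh-transgenic hearts the value was 0.16 ± 0.16 (95% interval -0.20 to 0.52, adjusted p = 0.603). RKIP-labelled against GRK-Inh-transgenic hearts gave 0.41 ± 0.16 (95% interval 0.051 to 0.77, adjusted p = 0.182). On the same arrays the signal of the second probe set was 0.252 and 0.190 of the main one in RKIP-labelled, 0.153 and 0.159 in GRK-Inh-transgenic hearts, and 0.214 and 0.172 in control hearts. The lowest 2 of these ratios were the GRK-Inh-transgenic ones. With the mean of both probe sets standing for Grk5, the rise in RKIP-labelled hearts was 0.55 ± 0.098 (adjusted p = 0.0114). That in GRK-Inh-transgenic hearts was 0.32 ± 0.098 and lost the call (adjusted p = 0.0751), so it rests on the choice of probe set.

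**Figure D1:**
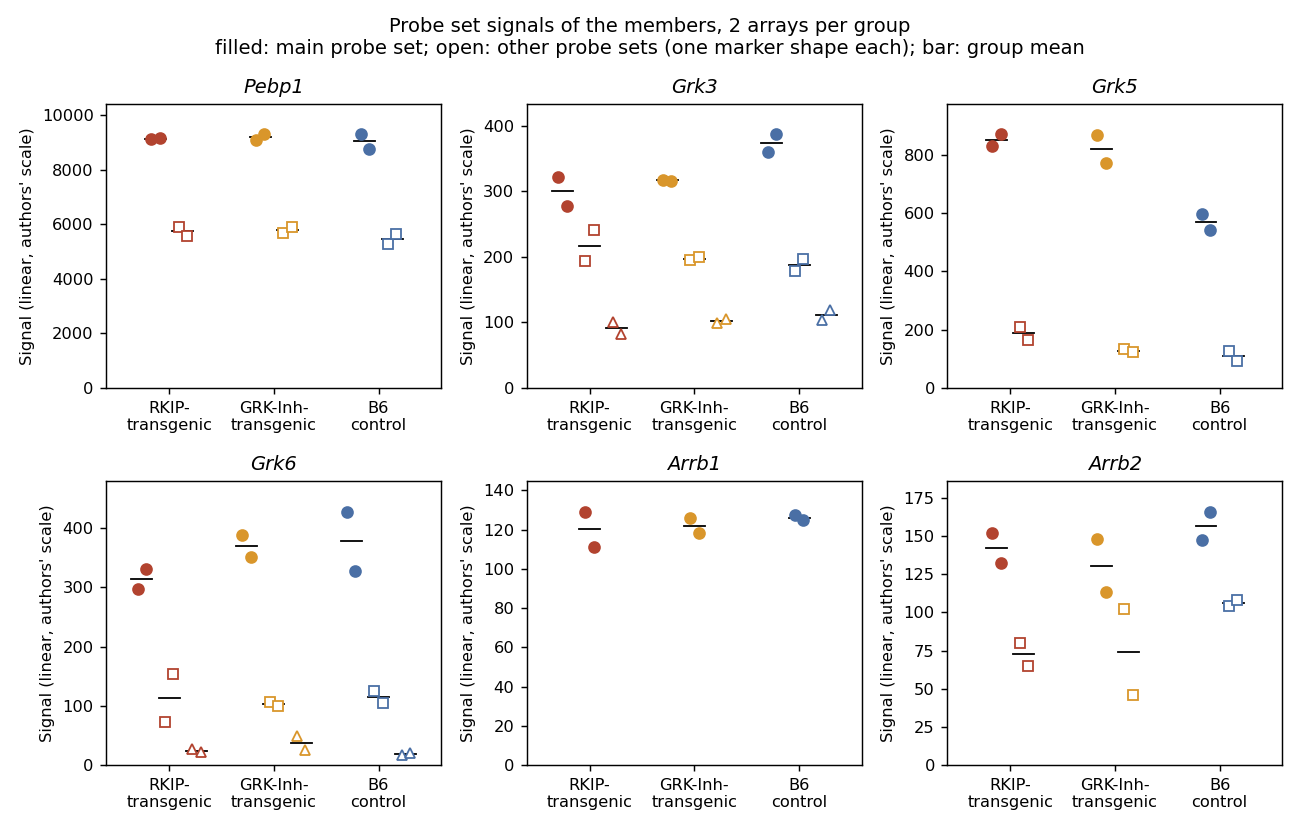
Signal (authors' linear scale, from 0) of every probe set of the 6 genes on each array, by group; points are arrays, bars are means of 2 arrays, filled points the main probe set and open points the others. For Grk5 the 4 transgenic arrays of the main probe set lie between 773 and 870.3, above the control arrays at 596 and 540.5, whereas the open points of GRK-Inh-transgenic hearts overlap the controls.

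Grk3 encodes a close relative of GRK2 that is drawn to the membrane by G-protein beta-gamma subunits. Its main probe set (1434450_s_at) gave 322 and 278 in RKIP-labelled hearts, 318 and 316 in GRK-Inh-transgenic hearts, and 361 and 387 in control hearts. Both transgenic groups lay below both control arrays and overlapped each other. The log2 fold change in RKIP-labelled against control hearts was -0.28 ± 0.11 (95% interval -0.52 to -0.038, unadjusted p = 0.0270, adjusted p = 0.137, limma). GRK-Inh-transgenic against control hearts gave -0.21 ± 0.11 (95% interval -0.45 to 0.033, adjusted p = 0.243). Between the transgenic groups it was -0.071 ± 0.11 (95% interval -0.31 to 0.17, adjusted p = 0.755).

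The other Grk3 probe sets did not agree on a direction. One (1440801_s_at) gave 194 and 241 in RKIP-labelled, 195 and 199.8 in GRK-Inh-transgenic, and 178 and 196 in control hearts, with a log2 fold change of 0.17 ± 0.13 in RKIP-labelled against control hearts (adjusted p = 0.510). The third (1439178_at) gave 101 and 81.8 in RKIP-labelled, 99.0 and 105 in GRK-Inh-transgenic, and 103 and 119.7 in control hearts, with a log2 fold change of -0.19 ± 0.16 in RKIP-labelled against control hearts (adjusted p = 0.519). The lower Grk3 level of the main probe set is thus below the calling threshold and is not shared by the second probe set.

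Grk6 encodes a kinase of the GRK5 type that is anchored to the membrane by palmitoylation and is also abundant in leukocytes. The main probe set (1437436_s_at) gave 297 and 331 in RKIP-labelled hearts, 388 and 351 in GRK-Inh-transgenic hearts, and 427 and 327 in control hearts. The control arrays lay far apart and spanned both GRK-Inh-transgenic arrays and 1 RKIP-labelled array. The log2 fold change was -0.22 ± 0.13 in RKIP-labelled against control hearts (95% interval -0.51 to 0.060, adjusted p = 0.316). It was -0.018 ± 0.13 in GRK-Inh-transgenic against control hearts (95% interval -0.30 to 0.27, adjusted p = 0.949). RKIP-labelled against GRK-Inh-transgenic hearts gave -0.21 ± 0.13 (95% interval -0.49 to 0.078, adjusted p = 0.380), with the RKIP-labelled arrays below the GRK-Inh-transgenic ones. A second probe set (1451672_at) gave 72.8 and 154 in RKIP-labelled, 107 and 101 in GRK-Inh-transgenic, and 125 and 104 in control hearts, so 2 arrays of 1 group differed more than the groups. The third (1450480_a_at) was below the filter level of 50.2, at 27.2 and 22.2 in RKIP-labelled, 50.3 and 26.3 in GRK-Inh-transgenic, and 17.7 and 21.4 in control hearts, and was not tested.

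The beta-arrestin genes were not called either. Arrb1, the gene of beta-arrestin 1, had a single probe set (1460444_at), with 129 and 111 in RKIP-labelled hearts, 126 and 118 in GRK-Inh-transgenic hearts, and 127 and 125 in control hearts. All 3 groups overlapped. Its log2 fold change was -0.049 ± 0.15 in RKIP-labelled against control hearts (95% interval -0.37 to 0.27, adjusted p = 0.876) and -0.035 ± 0.15 in GRK-Inh-transgenic against control hearts (95% interval -0.36 to 0.29, adjusted p = 0.911). Between the transgenic groups Arrb1 differed by -0.015 ± 0.15 (95% interval -0.34 to 0.31, adjusted p = 0.968).

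Arrb2 encodes beta-arrestin 2, the other widely expressed arrestin of non-visual receptors. Its main probe set (1426239_s_at) gave 152 and 132 in RKIP-labelled, 148 and 113 in GRK-Inh-transgenic, and 147 and 166 in control hearts. All 3 groups overlapped again. The log2 fold change was -0.11 ± 0.15 in RKIP-labelled against control hearts (95% interval -0.44 to 0.23, adjusted p = 0.728). For GRK-Inh-transgenic against control hearts it was -0.20 ± 0.15 (95% interval -0.54 to 0.14, adjusted p = 0.440). RKIP-labelled against GRK-Inh-transgenic hearts gave 0.093 ± 0.15 (95% interval -0.25 to 0.43, adjusted p = 0.780). The intervals of both arrestin genes are wide at these signals and do not show that the groups were alike.

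The dimmer Arrb2 probe set (1451987_at) gave 80.1 and 65.0 in RKIP-labelled, 102 and 46.3 in GRK-Inh-transgenic, and 104 and 108 in control hearts. All transgenic arrays lay below both control arrays, but the 2 GRK-Inh-transgenic arrays differed from each other by more than either group mean did from the control mean. Its log2 fold changes were -0.35 ± 0.21 in RKIP-labelled (adjusted p = 0.373) and -0.37 ± 0.21 in GRK-Inh-transgenic against control hearts (adjusted p = 0.320).

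**Figure D2:**
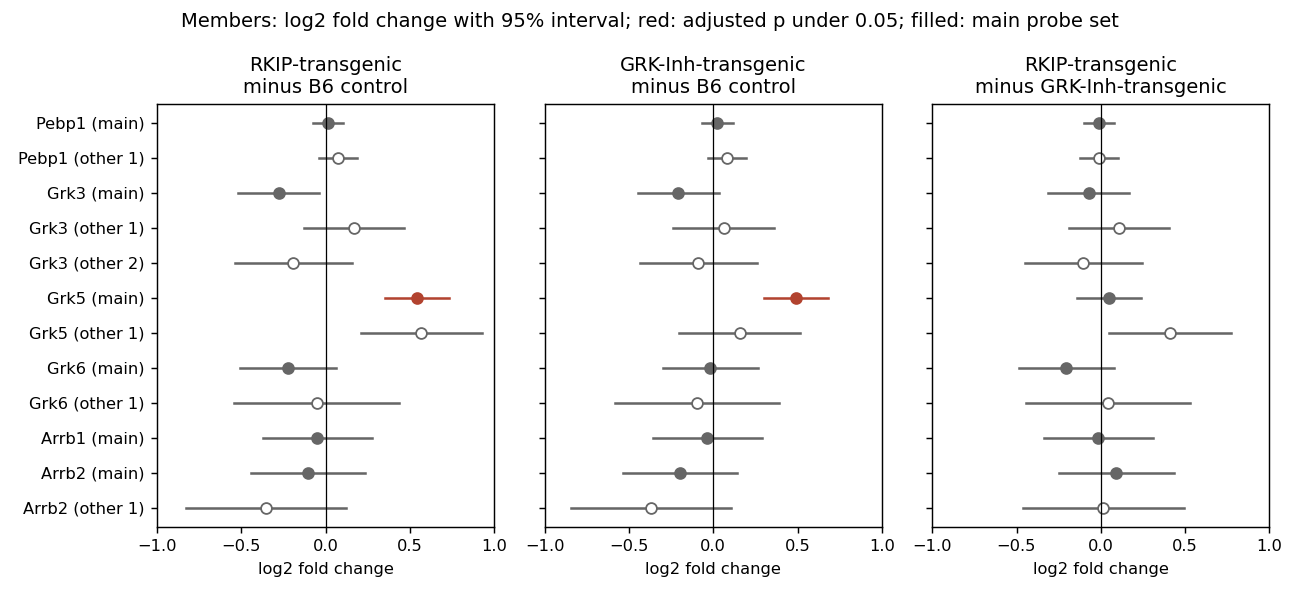
Log2 fold change (x axis) with its 95% interval for the 12 probe sets at or above the filter level, in the 3 comparisons; filled points are main probe sets and red marks an adjusted p under 0.05. The main probe set of Grk5, at 0.54 and 0.49, is red in RKIP-labelled and in GRK-Inh-transgenic against control hearts and lies at 0.050 between the transgenic groups, where its second probe set lies at 0.41.

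Among all tested genes, the members other than Grk5 lay in the body of the distribution. The members' median log2 fold change was -0.078 in RKIP-labelled against control hearts, beside -0.017 over all 11254 genes. For GRK-Inh-transgenic against control hearts it was -0.026, beside -0.031 over all genes, and between the transgenic groups it was -0.013, beside 0.021.

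**Figure D3:**
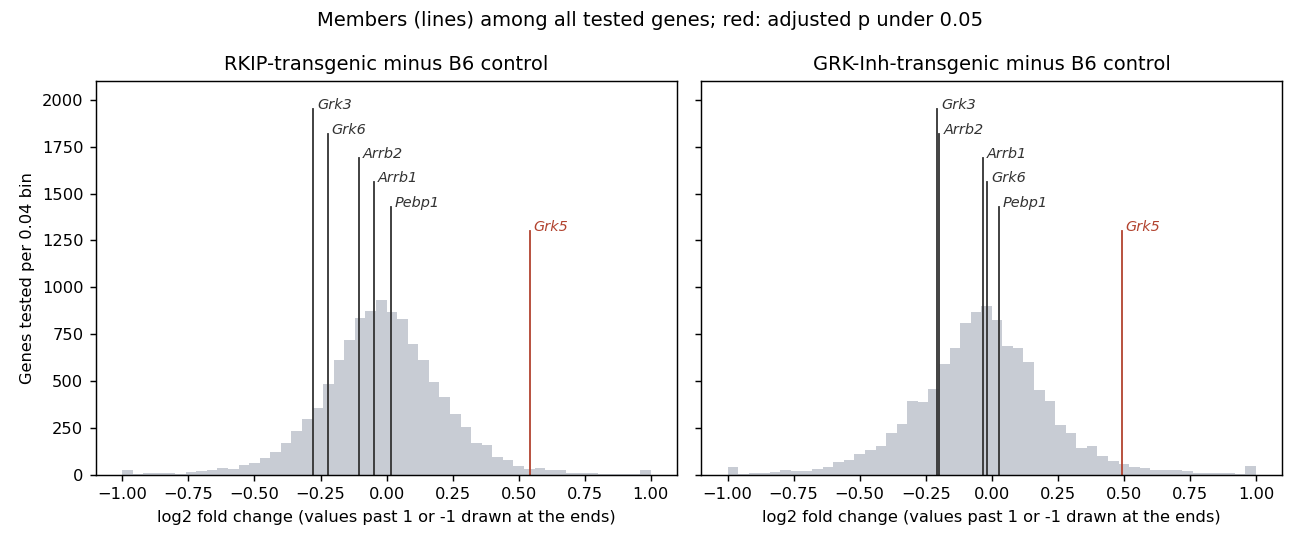
Histogram of the log2 fold changes of the 11254 tested genes in bins (x axis, values past the ends drawn there; y axis, genes per bin), with a line for each of the 6 genes. Grk5 lies to the right in both panels, at 0.54 in RKIP-labelled and 0.49 in GRK-Inh-transgenic against control hearts, and the other 5 genes lie between -0.28 and 0.025.

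By the correlation of log2 values over the 6 arrays, the genes most like Grk5 were Btf3 (Pearson r = 0.996), Lap3 (0.989) and Yipf7 (0.988), of 11253 compared. Of those compared, 324 genes had an r of at least 0.9, and with 6 arrays in 3 groups the ranking rests on few values. It used the main Grk5 probe set alone, whose rise in GRK-Inh-transgenic hearts the second probe set did not repeat. Btf3 had smaller differences than Grk5, with log2 fold changes of 0.22 in RKIP-labelled and 0.19 in GRK-Inh-transgenic against control hearts.

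Genes that work with these proteins were described in 5 lists, each by its counts and its median log2 fold change. Of all tested genes, 10.8% were called in RKIP-labelled against control hearts (median -0.017) and 13.1% in GRK-Inh-transgenic against control hearts (median -0.031). Of 13 tested genes for receptors, G proteins and adenylyl cyclases, 0 were called in RKIP-labelled against control hearts by limma (3 at an unadjusted p under 0.05), and the list's median was -0.13. In GRK-Inh-transgenic against control hearts 1 rose and 2 fell (8 at an unadjusted p under 0.05, limma), with a median of -0.15. Unadjusted counts, here and below, were not set against the share of all genes at that threshold, so they are no result about a list. Adcy6, a main adenylyl cyclase of heart muscle, gave 1867 and 1939 in RKIP-labelled, 2307 and 2382 in GRK-Inh-transgenic, and 1914 and 1712 in control hearts, and rose in the GRK-Inh-transgenic group (log2 fold change 0.36 ± 0.064, adjusted p = 0.00368). The angiotensin receptor gene Agtr1a fell there to 704 ± 125, against 962 ± 74.97 in control hearts (-0.43 ± 0.11, adjusted p = 0.0216), a call lost without GRK-Inh replicate 1 (-0.26, adjusted p = 0.146) and without either control array (adjusted p 0.158 without replicate 1 and 0.0557 without replicate 2). Gnaq, the alpha subunit of Gq, fell there by 0.28 ± 0.067 (adjusted p = 0.0188), and with the mean of its probe sets that call was lost (-0.14, adjusted p = 0.355), as it was without GRK-Inh replicate 1 (adjusted p = 0.0813), GRK-Inh replicate 2 (0.0859) or control replicate 2 (0.123).

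Of the relatives of the kinases and arrestins, 10 had a probe set and 6 reached the filter. The rod kinase gene Grk1, Grk4, the rod arrestin gene Sag and the RKIP relative Pebp4 did not reach it. In RKIP-labelled against control hearts 0 of 6 rose and 3 fell (median -0.21, where 10.8% of all genes were called), and in GRK-Inh-transgenic against control hearts 0 rose and 2 fell (median -0.18, where 13.1% were called). The genes that fell encode alpha-arrestins, adaptor proteins that share the arrestin fold but do not desensitize receptors in the way of the beta-arrestins. The alpha-arrestin genes did not all fall. Arrdc1 (0.051 in RKIP-labelled, 0.14 in GRK-Inh-transgenic against control hearts) and Arrdc2 (-0.053 and 0.082) were not called. Txnip, a thioredoxin-binding alpha-arrestin, gave 7859 and 7576 in RKIP-labelled, 6684 and 6558 in GRK-Inh-transgenic, and 9741 and 10093 in control hearts. No transgenic array reached the control arrays, and the log2 fold changes were -0.36 ± 0.041 in RKIP-labelled (adjusted p = 0.000299) and -0.58 ± 0.041 in GRK-Inh-transgenic hearts (adjusted p = 7.34e-06). Arrdc3, which has been linked to turnover of the beta2-adrenergic receptor, gave 675 and 686 in RKIP-labelled, 749.8 and 769 in GRK-Inh-transgenic, and 969 and 974 in control hearts. It fell by 0.48 ± 0.072 in RKIP-labelled (adjusted p = 0.00173) and by 0.34 ± 0.072 in GRK-Inh-transgenic hearts (adjusted p = 0.0105). The second of these calls was lost without GRK-Inh replicate 1 (adjusted p = 0.0676), control replicate 1 (0.0541) or control replicate 2 (0.0582). Arrdc4 fell in RKIP-labelled hearts to 80.3 ± 16.9, against 154 ± 6.71 in control hearts (-0.65 ± 0.17, adjusted p = 0.0303). Its dimmer probe set averaged 98.0 in RKIP-labelled and 82.2 in control hearts, and with the mean of both the call was lost (-0.25, adjusted p = 0.312), as it was without RKIP replicate 2 (adjusted p = 0.154), control replicate 1 (0.109) or control replicate 2 (0.146).

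Of 11 tested genes for the kinases that RKIP binds and for protein kinase C isoforms, 0 were called in either transgenic group by limma, and 3 in RKIP-labelled and 0 in GRK-Inh-transgenic hearts had an unadjusted p under 0.05. The medians were -0.072 in RKIP-labelled and 0.0044 in GRK-Inh-transgenic against control hearts. The MEK1 gene Map2k1 gave 745 and 768 in RKIP-labelled, 832 and 728 in GRK-Inh-transgenic, and 621 and 825 in control hearts. The control arrays of Map2k1 spanned all but 1 of the others. The MEK2 gene Map2k2 gave 689.6 and 708 in RKIP-labelled, 673 and 759 in GRK-Inh-transgenic, and 815 and 790.1 in control hearts (log2 fold changes -0.19 ± 0.082 in RKIP-labelled, adjusted p = 0.182, and -0.16 ± 0.082 in GRK-Inh-transgenic hearts, adjusted p = 0.240).

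Of 19 tested genes of arrestin-dependent endocytosis and scaffolding, 2 rose and 1 fell in RKIP-labelled against control hearts (median -0.018, where 10.8% of all genes were called), and 1 rose and 0 fell in GRK-Inh-transgenic against control hearts (median -0.045, where 13.1% were called). These shares are near or below those of all genes. Dnm2, the dynamin that pinches off coated pits, gave 611 and 641 in RKIP-labelled, 248 and 288 in GRK-Inh-transgenic, and 268 and 234 in control hearts. Its log2 fold change in RKIP-labelled hearts was 1.17 ± 0.11 (adjusted p = 8.63e-05), and in GRK-Inh-transgenic hearts it was 0.077 ± 0.11 (adjusted p = 0.701). Of the 7 Dnm2 probe sets the main one showed this by far the most: the next by signal averaged 324 in RKIP-labelled, 247 in GRK-Inh-transgenic hearts and 239.8 in control hearts. With the mean over its probe sets, Dnm2 was 0.41 in RKIP-labelled against control hearts (adjusted p = 0.0456). Map3k5, the gene of the arrestin-scaffolded kinase ASK1, averaged 1273 ± 55.1 in RKIP-labelled, 1294 ± 77.6 in GRK-Inh-transgenic hearts and 985 ± 172 in control hearts. It rose by 0.36 ± 0.10 in RKIP-labelled (adjusted p = 0.0452) and by 0.39 ± 0.10 in GRK-Inh-transgenic hearts (adjusted p = 0.0303) on the log2 scale. Without control replicate 2 the values were 0.19 in RKIP-labelled (adjusted p = 0.250) and 0.21 in GRK-Inh-transgenic hearts (adjusted p = 0.179). The call in RKIP-labelled hearts was also lost without any 1 of the 4 transgenic arrays (adjusted p 0.0517 to 0.189), and that in GRK-Inh-transgenic hearts without GRK-Inh replicate 1 (0.0593) or 2 (0.154). The adaptor subunit gene Ap2m1 fell in RKIP-labelled hearts (-0.35 ± 0.091, adjusted p = 0.0322), a call lost without any 1 of the 4 arrays compared (adjusted p 0.0738 to 0.147).

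The last list, called GRK5 regulators for short, held caveolins, deacetylases, transcription factors and Rcan1 among its tested genes. Its name does not mean that each gene encodes a regulator or substrate of GRK5. Of its 13 tested genes, 1 rose and 1 fell in RKIP-labelled hearts (median -0.028, where 10.8% of all genes were called). In GRK-Inh-transgenic hearts 1 rose and 3 fell (median -0.13, where 13.1% were called). Cav1, whose scaffold protein binds and inhibits GRKs, gave 7185 and 7419 in RKIP-labelled, 7331 and 7427 in GRK-Inh-transgenic, and 8564 and 8593 in control hearts. It fell by 0.23 ± 0.039 in RKIP-labelled (adjusted p = 0.00381) and by 0.22 ± 0.039 in GRK-Inh-transgenic hearts (adjusted p = 0.00406). Hdac9, of the same deacetylase class as HDAC5, fell in GRK-Inh-transgenic hearts to 414 ± 26.0, against 688 ± 20.4 in control hearts (-0.67 ± 0.088, adjusted p = 0.000592). Mef2c, a transcription factor that these deacetylases repress, fell there by 0.29 ± 0.070 (adjusted p = 0.0182), a call lost without GRK-Inh replicate 1 (adjusted p = 0.0700), GRK-Inh replicate 2 (0.0863) or control replicate 2 (0.131). Rcan1, a calcineurin regulator, averaged 1386 ± 188 in RKIP-labelled, 2706 ± 80.5 in GRK-Inh-transgenic hearts and 1096 ± 35.3 in control hearts, and rose in RKIP-labelled (0.32 ± 0.083, adjusted p = 0.0336) and in GRK-Inh-transgenic hearts (1.27 ± 0.083, adjusted p = 4.55e-06). The call in RKIP-labelled hearts was lost without RKIP replicate 1 (0.19, adjusted p = 0.216), control replicate 1 (adjusted p = 0.101) or control replicate 2 (0.171).

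**Figure D4:**
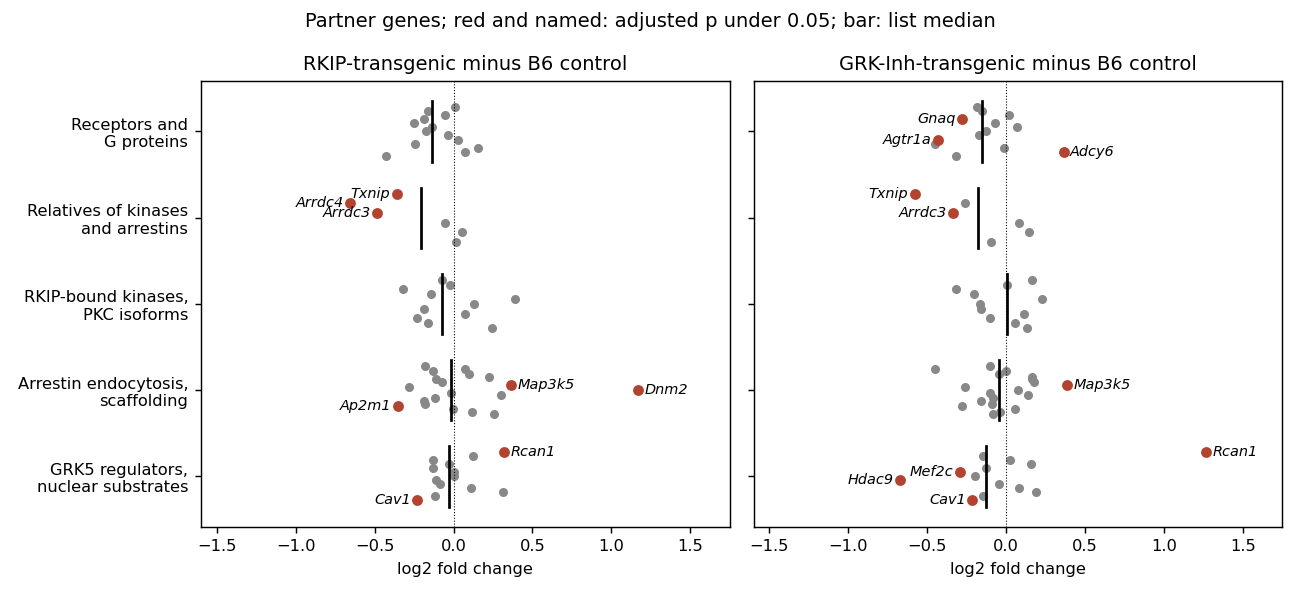
Log2 fold change (x axis) of each tested gene of the 5 partner lists in both comparisons with control; red named points have an adjusted p under 0.05 and bars are list medians. Of the alpha-arrestin genes, Txnip and Arrdc3 are red below 0 in both panels, and Arrdc1 and Arrdc2 are red in neither. Dnm2 stands alone at 1.17 in RKIP-labelled hearts, and Rcan1 at 1.27 in GRK-Inh-transgenic hearts.

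Heart muscle markers were strong on every array: Myh6, the heart's alpha myosin heavy chain, lay between 35906 and 39466. The summed signal of 8 such markers was 232798 to 234011 in RKIP-labelled, 227221 to 228362 in GRK-Inh-transgenic hearts and 233207 to 243134 in control hearts. Fibroblast, smooth muscle and endothelial markers were lower in sum in both transgenic groups, in which the main Grk5 probe set was higher. The fibroblast sum over 8 genes was 38946 to 39266 in RKIP-labelled, 36327 to 36772.5 in GRK-Inh-transgenic hearts and 51596 to 54219.9 in control hearts. Of these, 0 of 8 rose and 6 fell in RKIP-labelled hearts, where 10.8% of all genes were called, and 0 rose and 7 fell in GRK-Inh-transgenic hearts, where 13.1% were called. The sizes were uneven, and the collagen genes fell the most in RKIP-labelled hearts. Against control, Col1a1 was at -1.12 in RKIP-labelled and -1.13 in GRK-Inh-transgenic hearts, Col3a1 at -1.03 and -1.01, and Col1a2 at -0.79 and -0.85. Lum was at -0.22 and -0.74. Dcn, the brightest of the list, was at -0.097 in RKIP-labelled hearts, where it was not called, and at -0.17 in GRK-Inh-transgenic hearts. Tcf21 was called in neither group (-0.37 and -0.38). The 8 smooth muscle and pericyte markers summed to 30918 to 31098 in RKIP-labelled, 30675 to 30888 in GRK-Inh-transgenic hearts and 35815 to 36841 in control hearts. Of these, 0 rose and 6 fell in RKIP-labelled hearts, and 0 rose and 5 fell in GRK-Inh-transgenic hearts. Cnn1, at -0.072 in RKIP-labelled and 0.36 in GRK-Inh-transgenic hearts, was not called. The 8 endothelial markers summed to 5850.0 to 5939 in RKIP-labelled, 6348 to 6419 in GRK-Inh-transgenic hearts and 6699 to 6847 in control hearts. In each transgenic group against control, 0 of these 8 rose and 2 fell. Pecam1 was -0.079 in RKIP-labelled and 0.29 in GRK-Inh-transgenic hearts, and Vwf was 0.22 and -0.035, none of them called. Tek fell in RKIP-labelled (-0.42) and in GRK-Inh-transgenic hearts (-0.39), and without control replicate 2 it was -0.25 and -0.22. Kdr fell in RKIP-labelled hearts alone (-0.27) and was 0.22 in GRK-Inh-transgenic hearts, where it was not called. Without control replicate 1, Kdr was -0.20 in RKIP-labelled hearts. The calls of Tek and Kdr were lost with no filter. They were also lost with variances moderated without a trend (limma). There the adjusted p of Tek was 0.130 in RKIP-labelled and 0.119 in GRK-Inh-transgenic hearts, and that of Kdr 0.156 in RKIP-labelled hearts. Emcn fell in GRK-Inh-transgenic hearts (-0.38), and was -0.35 without GRK-Inh replicate 2 and -0.36 without control replicate 2. The 4 atrial markers summed to 63834 to 64004 in RKIP-labelled, 68661 to 69089.7 in GRK-Inh-transgenic hearts and 70366 to 70938.5 in control hearts. White adipocyte markers followed another pattern, with sums over 4 genes of 1170.5 to 1204 in RKIP-labelled, 3560.5 to 4195 in GRK-Inh-transgenic hearts and 3604 to 3777 in control hearts. Most of each sum was Car3, with means of 1046 in RKIP-labelled, 3440 in GRK-Inh-transgenic hearts and 3312 in control hearts. Adipoq also fell in RKIP-labelled hearts (-1.37), Retn was not called there (-0.34), and Lep was below the filter. For leukocytes, 8 macrophage markers summed to 11563 to 11921 in RKIP-labelled, 10336 to 10422 in GRK-Inh-transgenic hearts and 12118 to 12563 in control hearts. All 5 neutrophil markers with a probe set were below the filter, as were 5 of 7 lymphocyte markers. In these bulk samples fewer cells of a type and less RNA per cell cannot be told apart, and the part of cell makeup in the values of the 6 genes was not tested.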

How the data were processed

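The authors deposited 1 intensity per probe set and array, a linear signal from GCOS (version not stated) per the submitters' processing notes. The 2% trimmed mean was 300.002 on all 6 arrays, so the signals are scaled, and median signals ran from 50.3 to 55.0. The table held 45101 probe sets, of which 64 controls were set aside. 932 probe sets with several symbols and 9160 with none were left out. Groups and replicate numbers came from the titles. Symbols came from the platform annotation, updated through gene identifiers in the RefSeq table (34741 of 34945 matched). No normalization was added, and 50 was added to each signal before log2. The main probe set stood for each gene, and genes with a mean log2 value of at least 6.65 (a signal of 50.2) were tested.

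limma 3.58.1 in R 4.3.3 fitted the 3 groups together, with variances moderated along a trend (3 residual and 7.60 prior degrees of freedom). p-values were two-sided. Precision is limited by the number of arrays, with a median SE of 0.115 for log2 fold changes. Other probe sets were read from a fit over all probe sets with 1 symbol. Named were all members, per partner list up to 4 called genes or else 2 of highest signal, and the 3 genes most like each called member. Members and lists were chosen with earlier results of these data known. The fit was tested on simulated data. Samples sharing a replicate number did not deviate together (correlations -0.030, -0.035 and 0.026), so no pairing was used. Alternatives were other scalings, offsets of 16 and 200, other filters, other probe set rules, other variance models, only the compared arrays, the replicate block, and each array left out. Figures used Python 3.11.15 and matplotlib 3.10.9.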

Additional observations from a re-analysis of the deposited data

Results flagged for a closer look

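For the named genes below, the difference between the transgenic groups itself passed the test in the fit used throughout. The values are log2 fold changes of RKIP-labelled over GRK-Inh-transgenic hearts by limma, and none of the 6 members was among them.

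Partner genes higher in RKIP-labelled hearts were Dnm2 (1.09), Hdac9 (0.56), Agtr1a (0.46), Mef2c (0.30) and Txnip (0.22), and those lower were Rcan1 (-0.95) and Adcy6 (-0.29). Most of these calls depended on a setting or an array. With the mean over probe sets Dnm2 was 0.36 (adjusted p = 0.0792) and Hdac9 0.33 (adjusted p = 0.176). Agtr1a lost the call without RKIP replicate 1 (adjusted p = 0.108), RKIP replicate 2 (0.0726) or GRK-Inh replicate 1 (0.29, adjusted p = 0.148). Adcy6 lost it without any 1 of the 4 transgenic arrays (adjusted p 0.0533 to 0.109). Mef2c lost it without RKIP replicate 2 (0.147), GRK-Inh replicate 1 (0.0935) or GRK-Inh replicate 2 (0.113), and Txnip without RKIP replicate 1 (0.0643) or GRK-Inh replicate 2 (0.0694). Rcan1 kept its call under every alternative run.

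Cell type markers were named by their change against control, up to 2 in each list besides the brightest, so they do not stand for their lists. Higher in RKIP-labelled hearts were Mrc1 (0.45) and Csf1r (0.24) of macrophages and Pdgfrb (0.30) of pericytes. Lower were Car3 (-1.67) and Adipoq (-1.52) of adipocytes, Kdr (-0.49) of endothelium, Myl7 (-0.36) of atrial muscle and Acta2 (-0.31) of smooth muscle. Csf1r lost the call without RKIP replicate 1 (0.21), GRK-Inh replicate 1 (0.26) or GRK-Inh replicate 2 (0.23), and Acta2 gave 0.0040 with the mean over its probe sets. With variances moderated without a trend, all of these markers but Car3 and Adipoq lost the call (limma). The adjusted p was then 0.0529 for Kdr, 0.0579 for Myl7, 0.0671 for Mrc1, 0.0860 for Pdgfrb, 0.0935 for Acta2 and 0.139 for Csf1r. Over whole lists, 0 of 8 endothelial markers were called higher and 2 lower, where 8.82% of all genes were called. Of 8 smooth muscle and pericyte markers, 2 were called higher and 2 lower. For macrophages 2 of 8 markers were higher and 0 lower, and for fibroblasts 1 of 8 higher and 0 lower. Of 3 tested adipocyte markers 0 were higher and 2 lower, and of 4 atrial markers 0 were higher and 1 lower.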

How the results depend on the processing

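Grk5 kept its call in RKIP-labelled against control hearts under every alternative run. It came closest to the threshold with variances moderated without a trend (adjusted p = 0.0487, limma). For GRK-Inh-transgenic hearts it lost the call only with the mean over its probe sets (0.32, adjusted p = 0.0751). Over the members' 18 main values, 318 alternative values held 301 with the same direction and call, 1 lost call and 16 changes of sign, all 16 in values that were not called. With quantile normalization, Grk6 was 0.0028 and Arrb1 0.017 in GRK-Inh-transgenic against control hearts, and with arrays shifted to one median they were 0.027 and 0.010. With the mean over probe sets, Grk6 was 0.073 there, and the difference of the marker Acta2 between the transgenic groups was 0.0040. The filter at the 75th percentile gave no value for Arrb1 and Arrb2. With the replicate number as a block, the second Grk5 probe set passed in RKIP-labelled hearts (0.57, adjusted p = 0.0485), Grk5 stayed called (adjusted p = 0.00430 in RKIP-labelled and 0.00493 in GRK-Inh-transgenic hearts), and no other member's call changed.

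Leaving out each array in turn, values of uncalled members that changed sign ranged as follows. In RKIP-labelled against control hearts Pebp1 ran from -0.027 to 0.057 and Arrb1 from -0.13 to 0.026. In GRK-Inh-transgenic against control hearts Pebp1 ran from -0.016 to 0.067 and Grk6 from -0.19 to 0.15. Between the transgenic groups the ranges were -0.027 to 0.0066 for Pebp1, -0.16 to 0.020 for Grk3, -0.029 to 0.13 for Grk5, -0.091 to 0.061 for Arrb1 and -0.045 to 0.23 for Arrb2.

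Counts of called genes were 1219 for RKIP-labelled against control, 1477 for GRK-Inh-transgenic against control and 993 between the transgenic groups. With variances moderated without a trend they were 297 for RKIP-labelled against control, 731 for GRK-Inh-transgenic against control and 255 between the transgenic groups. Without a trend the calls of Cav1 (adjusted p = 0.129 in RKIP-labelled and 0.119 in GRK-Inh-transgenic against control hearts), Txnip in RKIP-labelled (0.0629) and Adcy6 in GRK-Inh-transgenic hearts (0.0624) were also lost. With the mean over probe sets the count was 756 for RKIP-labelled against control and 618 between the transgenic groups, and with no filter the count between the transgenic groups was 617. Leaving out each array gave 621 to 1126 for RKIP-labelled against control, 896 to 1483 for GRK-Inh-transgenic against control and 465 to 874 between the transgenic groups. In each comparison the counts moved past 1.5 times when any of its own 4 arrays was left out.

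Counts of called list members were small and moved, under alternatives chosen after seeing the data. In RKIP-labelled against control hearts, the receptor and G-protein count of 0 became 1 with arrays shifted to one median, with an offset of 200 and with the mean over probe sets, 2 with the filter at the 75th percentile, and 0 to 1 with an array left out. The count of 3 for relatives became 1 without a trend. The count of 3 for endocytosis became 1 with no filter and without a trend, and 1 to 2 with an array left out. The count of 2 for GRK5 regulators became 1 with no filter and with only the compared arrays, 0 without a trend, and 1 to 2 with an array left out. In GRK-Inh-transgenic against control hearts, the receptor count of 3 became 0 without a trend and 1 to 3 with an array left out, that of 2 for relatives 1 to 2, and that of 0 for RKIP-bound kinases 0 to 1. There the endocytosis count of 1 became 0 with no filter and without a trend, 2 with the filter at the 75th percentile, 3 with the mean over probe sets and 0 to 1 with an array left out. The count of 4 for GRK5 regulators became 2 without a trend. The cause of these moves was not tested. With 2 arrays a group, dim genes such as Arrb1 and Arrb2 had wide intervals.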
